A study of Homo sapiens with 6 samples.

Results

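Glycolysis and the transcriptional response to low oxygen were followed through 41 genes chosen by name: 17 glycolytic enzymes, 7 sugar or lactate transporters and flux regulators, 14 other genes of the hypoxia response and the 3 HIF subunit genes HIF1A, EPAS1 and ARNT. The list was matched by gene symbol to the probe sets of a whole-transcriptome array, and each gene was read through its brightest probe set naming that gene alone. Such a probe set was found for 39 of the 41 genes, out of 19775 genes in the series, and 37 of them passed a filter on dim signals and were tested among 12206 genes. SLC2A3, a neuronal-type glucose transporter gene, and EGLN3, a HIF prolyl hydroxylase gene, lay under the filter, and SLC16A3 and CA9 were not analysed here. The 6 samples were SKOV3 cells, from an established human ovarian cancer cell line that the labels call high grade serous. They were grown in medium with serum. A 24 h transfection delivered either 5 nM of miR21 precursor (replicate numbers 1, 2 and 3) or a negative control precursor (replicate numbers 1, 2 and 3). The study as a whole concerns miR21 passed from stromal cells in exosomes and taxol resistance. All cells were transfected with a precursor, and no low-oxygen culture or untransfected culture was compared, so each difference below is that between the 2 precursors in 1 cell line. The labels do not tell whether the numbered samples grew in separate dishes, so every p-value here reflects the spread among these samples alone, and that spread may be technical.

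Glycolysis splits glucose into pyruvate, which lactate dehydrogenase reduces to lactate, and hexokinase, phosphofructokinase and pyruvate kinase catalyse its committed steps. When oxygen is scarce the prolyl hydroxylases encoded by the EGLN genes stop marking HIF alpha subunits for destruction, and HIF1A or EPAS1 protein pairs with ARNT and binds hypoxia response elements whose core reads ACGTG or GCGTG. Most glycolytic genes and the genes for the angiogenic factor VEGFA, the vasodilator peptide adrenomedullin (ADM) and carbonic anhydrases are known HIF targets, and ovarian tumours commonly express them. HIF alpha is regulated mainly at the protein level, which these arrays do not measure.

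The added microRNA and 4 promoters are shown because the members described below stood on both sides of 0. Sequences are from RefSeq on build GRCh38.p14. The mature microRNA of the precursor's name lies at chr17:59841273-59841294 on the plus strand, and capitals mark its seed, bases 2 to 8.
hsa-miR-21-5p: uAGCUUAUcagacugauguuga
The promoters run from 250 bases before to 50 after the gene's start, with the letters ACGTG and GCGTG and their reverse complements CACGT and CACGC in capitals. Overlapping matches, as in CACGTG where both strands match, were counted as 1. By the probe set used, ADM and HK2 had higher signals with miR21 in all 3 replicate numbers, and ENO1 and ANKRD37 had lower signals in all 3. Other probe sets of HK2 differed in the opposite direction, as given with their values. A second ANKRD37 probe set, under the filter, was higher with miR21 in numbers 1 and 2 and lower in number 3.
ADM promoter (chr11:10304823-10305122, plus strand): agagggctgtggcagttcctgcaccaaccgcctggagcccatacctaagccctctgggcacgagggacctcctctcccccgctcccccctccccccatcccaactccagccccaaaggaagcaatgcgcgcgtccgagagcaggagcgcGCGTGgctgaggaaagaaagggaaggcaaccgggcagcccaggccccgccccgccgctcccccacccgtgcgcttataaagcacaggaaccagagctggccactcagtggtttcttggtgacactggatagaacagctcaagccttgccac
HK2 promoter (chr2:74833877-74834176, plus strand): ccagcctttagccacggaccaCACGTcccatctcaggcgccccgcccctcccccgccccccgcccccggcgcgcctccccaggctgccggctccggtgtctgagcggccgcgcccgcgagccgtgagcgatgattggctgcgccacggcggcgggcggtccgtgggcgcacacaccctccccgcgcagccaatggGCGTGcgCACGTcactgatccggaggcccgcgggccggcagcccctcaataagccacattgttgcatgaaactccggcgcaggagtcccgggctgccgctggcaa
ENO1 promoter (chr1:8878637-8878936, minus strand): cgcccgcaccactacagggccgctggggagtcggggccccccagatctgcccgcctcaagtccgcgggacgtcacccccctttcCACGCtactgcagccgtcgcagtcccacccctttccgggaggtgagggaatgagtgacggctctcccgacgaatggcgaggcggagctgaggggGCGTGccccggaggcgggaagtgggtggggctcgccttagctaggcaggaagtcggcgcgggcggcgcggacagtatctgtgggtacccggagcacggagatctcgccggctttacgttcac
ANKRD37 promoter (chr4:185396591-185396890, plus strand): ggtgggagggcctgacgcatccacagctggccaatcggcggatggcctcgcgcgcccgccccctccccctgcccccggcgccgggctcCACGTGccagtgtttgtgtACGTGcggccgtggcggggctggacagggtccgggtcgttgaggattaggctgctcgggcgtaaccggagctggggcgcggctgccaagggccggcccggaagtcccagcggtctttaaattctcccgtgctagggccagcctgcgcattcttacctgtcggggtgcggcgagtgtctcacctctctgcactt
The windows held 1 such match for ADM, 3 for HK2 (the first of its 2 annotated starts), 2 for ENO1 and 2 for ANKRD37. The letters were thus present both for ADM, which was higher, and for ENO1, which was lower. A first window was found for 37 of the 41 genes and held a match for 27 of them (73.0%), with 12 of 17 among the enzymes (70.6%) and 9 of 11 among the other hypoxia genes (81.8%). Of all 27305 genes with a window, whether tested here or not, 48.4% held a match. The share among the tested genes alone was not computed. VEGFA, NDRG1, BNIP3L and SLC2A3 had no window. A match is a description of letters and not a bound site.

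The arrays of replicate number 1 stood apart from the others. The signal at the lower quartile of all probe sets was 40.0 and 37.2 on them and 15.4 to 18.0 on the other 4 arrays, and a principal component that held 65.2% of the variance set number 1 apart from numbers 2 and 3. The ratio of the 3' to the 5' control probe set, which grows as RNA degrades, was 0.899 to 1.07 for GAPDH on all 6 arrays. For ACTB the control arrays of numbers 1, 2 and 3 gave 1.79, 2.88 and 1.29 and the miR21 arrays 1.96, 3.32 and 1.36, so it was higher on the miR21 array of each number and differed more between numbers; its part in the results was not tested. Of 10 ovarian epithelial markers 8 were above the filter, among them PAX8 (signals of 6601 to 10255), EPCAM and ERBB2. WT1 (41.6 to 71.5) and MUC16 (3.12 to 27.3), both commonly used for serous tumours, were not. Of 4 measured leukocyte markers 0 passed the filter, of 6 fibroblast markers 1 and of 4 endothelial markers 1. The summed fibroblast signal was 287.6 to 930.1 in control and 210.2 to 1132.8 in miR21 samples, against 57279.9 to 110872 and 64285 to 94103 for the epithelial list.

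The groups of members had medians on both sides of 0. The 17 enzymes had a median log2 difference (miR21 minus control) of -0.10, with 14 below 0 and 3 above, and the 12 tested other hypoxia genes had a median of 0.26, with 10 above 0 and 2 below. The hypoxia split was 6 above and 6 below without control replicate 3, and 7 against 5 without miR21 replicate 1. Leaving out 1 array leaves the groups unequal in replicate number. Without both arrays of number 1, 2 or 3 the hypoxia split was 9 against 3, 10 against 2 and 10 against 2. The enzyme split was then 3 above and 14 below without number 1 or 2, and 8 against 9 without number 3. The median over all 12206 genes was -0.01. In these bulk samples fewer cells of a kind and less RNA per cell cannot be told apart. The enzyme median minus the hypoxia median was -0.37 over all arrays, and -0.50, -0.24 and -0.37 within replicate numbers 1, 2 and 3. Without both arrays of number 1, 2 or 3 it was -0.35, -0.50 and -0.40. These are descriptions of chosen lists and carry no test. With each array centred on its own median, the median of all genes moved to 0.089, the enzyme median to -0.0054 (9 below 0 and 8 above) and the hypoxia median to 0.36. The enzyme median was 0.042 without control replicate 3 and 0.021 with array weights, so its side of 0 is not stable. Quantile normalization left 11 enzymes below 0 and 6 above. The gap was small without control replicate 3 (-0.022), and it was -0.18 without miR21 replicate 1, -0.68 without control replicate 1 and -0.72 without miR21 replicate 3.

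**Figure D1:**
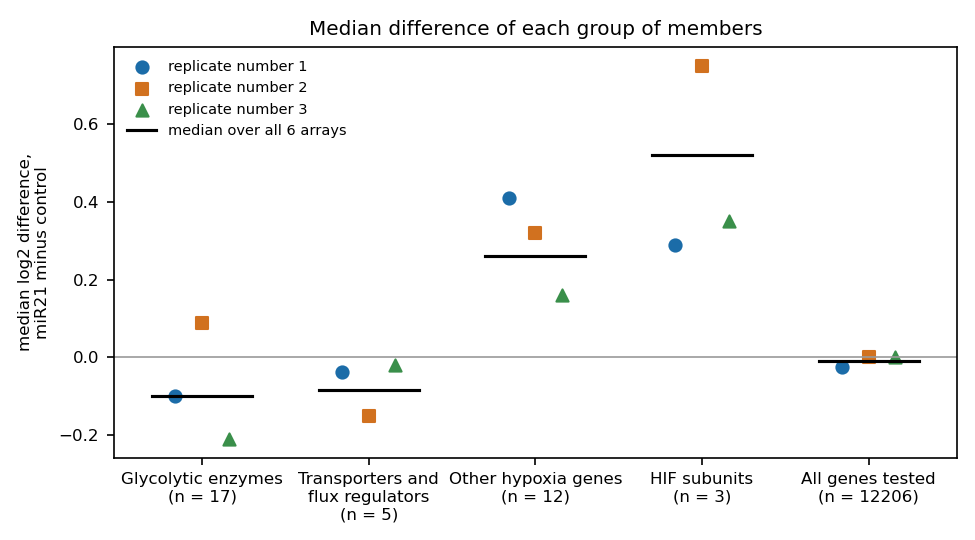
Median log2 difference, miR21 minus control, of each group of tested members and of all genes tested (y axis), with a point for each replicate number and a line for the median over all 6 arrays. The other hypoxia genes lie above 0 in all 3 numbers (0.41, 0.32 and 0.16), while the enzymes lie at -0.10, 0.089 and -0.21.

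No member passed the test. limma called 0 of the 37 tested members, as it called 0 (0%) of all 12206 genes at an adjusted p under 0.05, and at an unadjusted p under 0.05 it held 0 members against 2.44% of all genes. Arrays of the same replicate number deviated together, and with the number as a block the standard errors of the members lay between 0.13 and 0.52 with a median of 0.18, against a median of 0.35 without it. The block fit again called 0 members, with 4 genes or 0.0328% called in all, and the smallest adjusted p of a member was 0.113 (VEGFA). Without adjustment, 7 members had a block p under 0.05 on the higher side (18.9%, against 9.81% of all genes): VEGFA, ADM, NDRG1, EPAS1, HK2, ARNT and KDM3A. It held 3 on the lower side (8.11%, against 10.3%): PGAM1, ENO1 and BHLHE40. A log2 difference above 0.5 was seen for 8 members (21.6%, against 9.62%): HK2, PFKFB4, VEGFA, ADM, ANGPTL4, NDRG1, EPAS1 and ARNT. Among probe sets above the filter, HK2 and ARNT exceeded 0.5 only by the one used. The PFKFB4 value rested on control replicate 1, and ANGPTL4 was dim. On the other side 1 member, PGAM1, lay below -0.5 (2.70%, against 11.6%). The members were chosen with earlier results of these data known, so a share above that of all genes is no independent evidence. In all 3 replicate numbers 8 members were higher (21.6%, against 20.3%) and 8 lower (21.6%, against 20.9%), so those counts were near the background. The groups did not overlap for 3 members, all lower (HK1, PFKM and ANKRD37; the background is 3.27% lower and 3.38% higher).

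**Figure D2:**
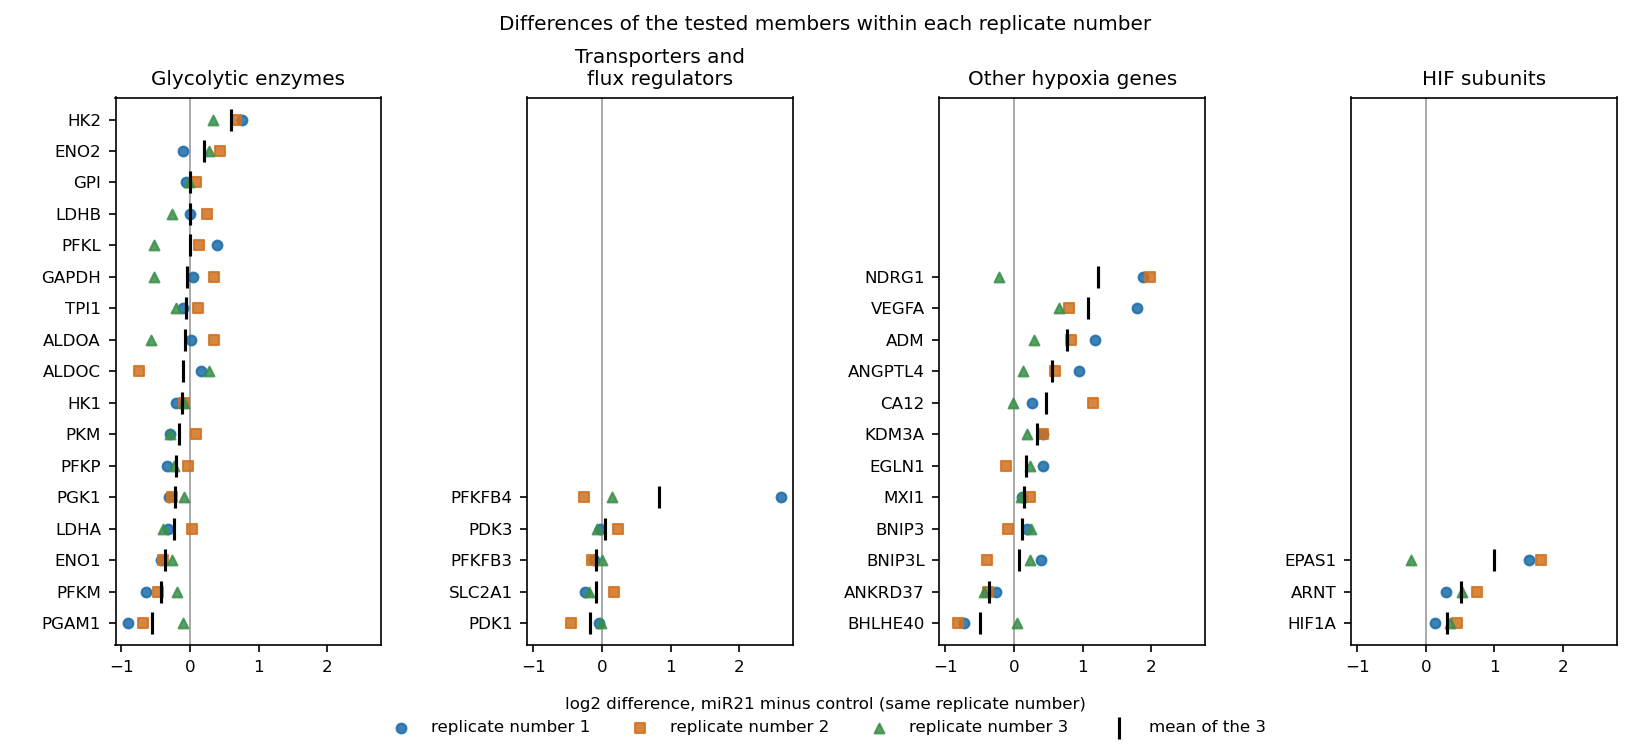
Log2 difference, miR21 minus control, within each replicate number (points) and their mean (bar) for the 37 tested members, in 4 panels by role. The enzymes cluster near 0 between -0.91 and 0.76, whereas NDRG1 and EPAS1 lie far above 0 in numbers 1 and 2 and just below 0 in number 3.

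VEGFA had the smallest p of the members in the block fit (limma, unadjusted p = 0.0017), and NDRG1 in the fit without it (0.0554). In numbers 1, 2 and 3 the control signals of VEGFA were 3137, 3002 and 811 and its miR21 signals 10877, 5213 and 1280.3. The miR21 array was the higher one in each number. Both arrays of number 3 were low, and the groups overlapped only through its miR21 array. The mean difference was 1.08, a signal 2.12-fold higher, and it did not pass in limma (SE 0.84, adjusted p = 0.9999). It was 0.39 without miR21 replicate 1, 0.44 without control replicate 3 and 1.94 without miR21 replicate 3. With the block the SE was 0.23, the 95% interval 0.55 to 1.61 and the adjusted p 0.113 in limma. All 4 VEGFA probe sets were above the filter and differed by 0.65 to 1.19. In number 3 the other 3 gave -0.10, 0.034 and -0.066 where the brightest gave 0.66, so the VEGFA difference of number 3 depends on the probe set.

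ADM, read by 1 probe set, had control signals of 1318, 1683 and 1127 and miR21 signals of 2977, 2995 and 1382. It was higher in each number, by 1.18, 0.83 and 0.29, and the groups overlapped only through the miR21 array of number 3. The mean difference was 0.77 (1.70-fold; SE 0.39, and 0.19 with the block). ANGPTL4, a lipoprotein lipase inhibitor gene, was dim, with signals of 56.6, 167.5 and 122 in control and 109, 253 and 134 in miR21 samples. Its difference of 0.56 was the same sign in each number but had an SE of 0.58 (0.31 with the block). It was 0.11 without control replicate 1, 0.20 without miR21 replicate 2 and 0.90 without control replicate 2. A second ANGPTL4 probe set, under the filter, differed by -0.10.

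NDRG1, a differentiation and stress response gene, and EPAS1, which encodes HIF-2 alpha, shared a pattern over the replicate numbers. NDRG1 signals were 959, 1771 and 2126 in control and 3523, 7024 and 1831 in miR21 samples, so it was higher in numbers 1 and 2 (1.88 and 1.99) and not in number 3 (-0.22). The mean was 1.22, or 2.32-fold, the largest difference among the members (limma, SE 0.54; 0.40 with the block). EPAS1 signals were 2498, 3006 and 3509 in control and 7053, 9620.3 and 3032 in miR21 samples. Its differences were 1.5, 1.68 and -0.21 with a mean of 0.99 (1.98-fold; SE 0.45, and 0.34 with the block). With 1 array left out, NDRG1 was lowest (0.73) and EPAS1 was lowest (0.64) without miR21 replicate 2. A second EPAS1 probe set, under the filter, differed by 0.80 and another by -1.30. Without both arrays of number 3, limma with the block called 11 of the 37 members, but it then also called 32.8% of all genes. The block fits without number 1 or 2 called 59 and 0 genes and 0 members. Each of these fits had 1 residual degree of freedom before shrinkage.

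The other HIF subunits differed less. HIF1A had control signals of 24882, 13832 and 15650.2 and miR21 signals of 27197, 18915 and 19879.5. It was higher in each number, by 0.13, 0.45 and 0.35 (mean 0.31, SE 0.31, and 0.14 with the block). ARNT, the shared partner subunit, had signals of 493, 321 and 205 in control and 604, 538 and 295 in miR21 samples and a mean difference of 0.52 (SE 0.45, and 0.21 with the block). The other 3 ARNT probe sets above the filter differed by 0.0032, -0.08 and -0.016, so the ARNT value rests on 1 of 4 probe sets.

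**Figure D3:**
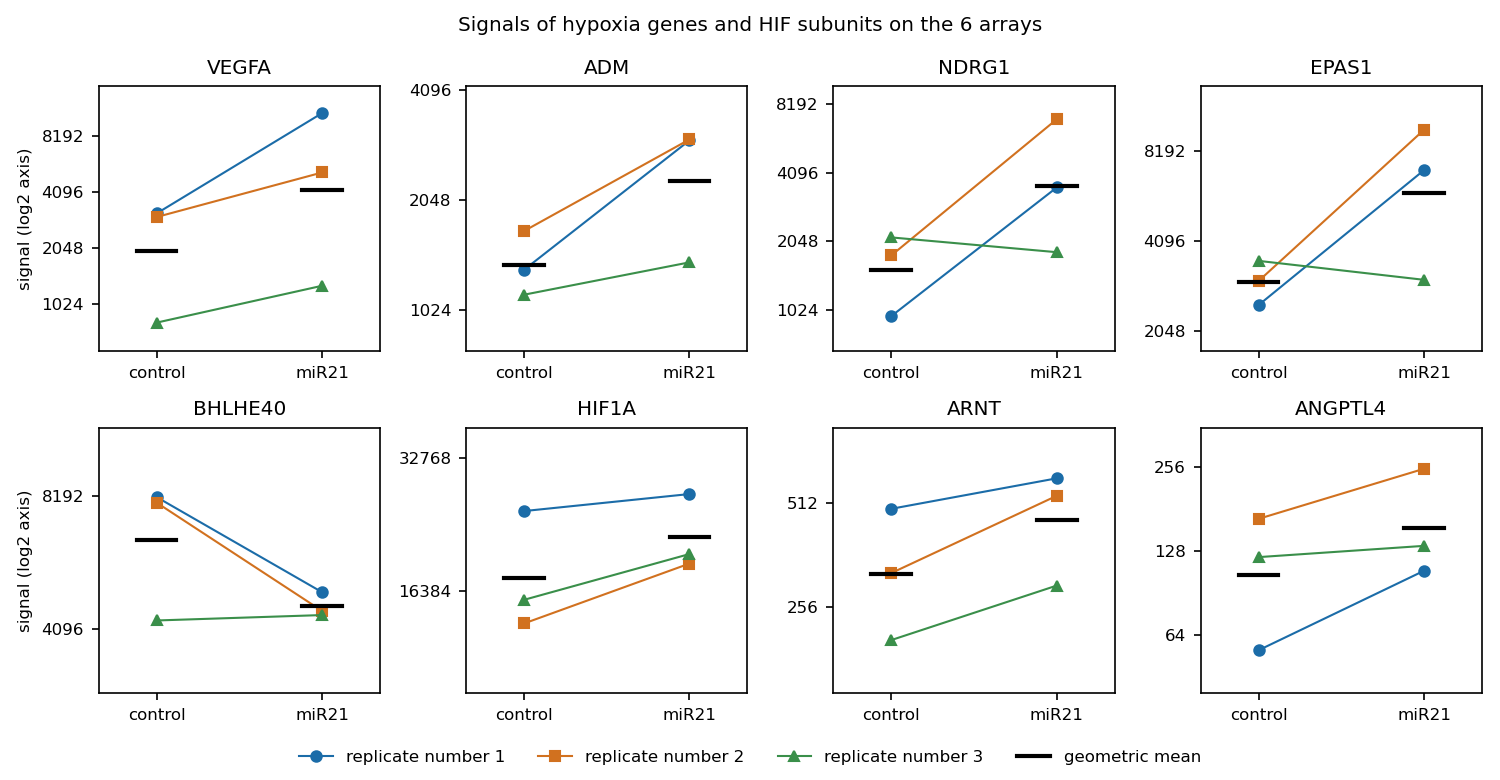
Signals on a log2 axis for 8 hypoxia genes and HIF subunits, with a line joining the control and miR21 arrays of each replicate number and a bar for each group's geometric mean. By the probe set used, VEGFA and ADM are higher with miR21 in each number, and NDRG1 and EPAS1 in numbers 1 and 2. The other VEGFA probe sets, not drawn here, gave -0.10, 0.034 and -0.066 in number 3. BHLHE40 is lower in numbers 1 and 2, where control signals of 8165 and 7932 stand against 4968 and 4506.

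Members of the hypoxia response lay on the lower side as well. BHLHE40, a circadian and hypoxia-responsive repressor gene, had signals of 8165, 7932 and 4286 in control and 4968, 4506 and 4409 in miR21 samples. The 3 miR21 arrays were close together and near control replicate 3. The mean difference was -0.50 (SE 0.33; 0.19 with the block, 95% interval -0.94 to -0.056), and a dimmer probe set differed by -0.16. ANKRD37, an ankyrin repeat gene used as a HIF reporter, had signals of 278, 275 and 363 in control and 231, 212 and 267 in miR21 samples. The groups did not overlap, and the difference was -0.36 with an SE of 0.33 (0.22 with the block). A second ANKRD37 probe set, under the filter, differed by 3.98, 0.69 and -0.91 in numbers 1, 2 and 3, with a control replicate 1 signal of 4.73. With this dim probe set averaged in, the difference was 0.45. EGLN3, under the filter, had signals of 74.9, 56.3 and 60.5 in control and 73.7, 32.6 and 34.7 in miR21 samples (log2 difference -0.54, exact two-sided permutation p = 0.3). With 3 arrays against 3 such a test cannot give less than 0.1.

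CA12, a membrane carbonic anhydrase gene, was higher by all 5 of its probe sets above the filter, with differences of 0.38 to 0.71. The brightest had signals of 2229, 1929.5 and 3009.5 in control and 2679.8, 4319 and 2978 in miR21 samples (mean difference 0.47, SE 0.32, and 0.23 with the block), and 4 of the 5 were higher in all 3 numbers. KDM3A, a histone demethylase gene induced by HIF, had signals of 1723, 1767 and 1296 in control and 2304, 2369.5 and 1474 in miR21 samples (0.34, SE 0.31, and 0.14 with the block). The remaining members of this group were closer to 0: MXI1, a MYC antagonist gene, at 0.15, EGLN1, the main oxygen sensor of HIF, at 0.18, and the mitophagy receptor genes BNIP3 and BNIP3L at 0.12 and 0.082. EGLN1 had 2 further probe sets above the filter at -0.25 and -0.17, so its direction depends on the probe set.

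At an unadjusted p under 0.05 in the block fit, 1 of the 17 enzymes was on the higher side (HK2; 5.88%, against 9.81% of all genes) and 2 on the lower side (PGAM1 and ENO1; 11.8%, against 10.3%). HK2, the inducible hexokinase gene, had signals of 433, 539.7 and 347 in control and 734, 858 and 436 in miR21 samples. It was higher in each number, by 0.76, 0.67 and 0.33, with a mean of 0.59 (1.5-fold; SE 0.37, and 0.19 with the block). The other 2 HK2 probe sets went the opposite way in each number, with means of -0.59 and -0.72 at signals of 62.3 to 301. HK2 therefore has no single direction here. HK1, the constitutive hexokinase gene, had signals of 3271 to 3449.6 in control and 3009.8 to 3156 in miR21 samples, a difference of -0.12 between groups that did not overlap.

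PGAM1, the phosphoglycerate mutase gene, had signals of 6389.9, 11160.1 and 15084 in control and 3409.9, 6922 and 14079 in miR21 samples. The differences were -0.91, -0.69 and -0.10, with a mean of -0.56 or a control signal 1.48-fold higher (limma, SE 0.55; with the block SE 0.18, 95% interval -0.98 to -0.15, adjusted p = 0.168). Its spread within a group was larger than the difference, since control signals ranged 2.36-fold and miR21 signals 4.13-fold. Without miR21 replicate 1 the PGAM1 difference was -0.054, and without miR21 replicate 3 it was -1.08. ENO1, the main enolase gene, had signals of 27540.1, 25715 and 36454 in control and 20389, 19590.2 and 30274 in miR21 samples. It was lower in each number by similar amounts, -0.43, -0.39 and -0.27 (mean -0.36, SE 0.28, and 0.14 with the block). A second bright ENO1 probe set differed by -0.29 and a dimmer one by -0.054. A further ENO1 probe set, under the filter, differed by -1.85, and the mean over all its probe sets by -0.64.

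PFKM, the muscle-type phosphofructokinase gene, had tight control signals of 488, 475 and 481 and miR21 signals of 313, 344 and 422. The groups did not overlap, and the difference was -0.43 (SE 0.29, and 0.20 with the block). The other phosphofructokinase genes lay at -0.0056 (PFKL) and -0.21 (PFKP). PGK1, the phosphoglycerate kinase gene, had a difference of -0.22, and all 4 of its probe sets above the filter were lower, between -0.45 and -0.22, and lower in each number.

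**Figure D4:**
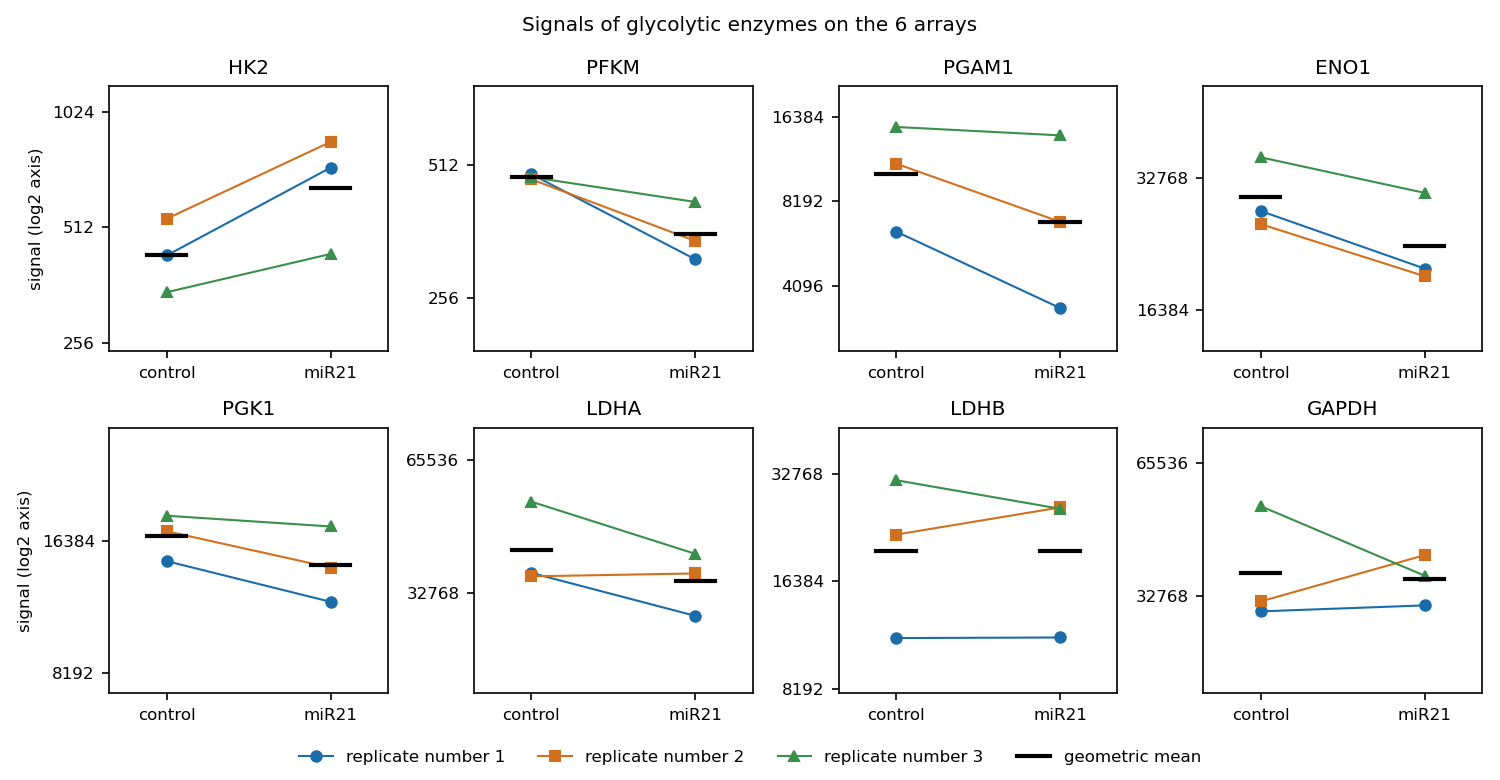
Signals on a log2 axis for 8 glycolytic enzymes, with a line joining the control and miR21 arrays of each replicate number and a bar for each group's geometric mean. PGAM1 and LDHB differ more between replicate numbers than between precursors, and the GAPDH lines run in both directions.

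The remaining enzymes had differences between -0.23 and 0.21. GAPDH, often used as a reference gene, had signals of 30264, 31876 and 52430.0 in control and 31228, 40596 and 36462 in miR21 samples. Its mean difference was -0.043, with 0.045, 0.35 and -0.52 within the numbers, and the 3 probe sets of GAPDH gave -0.087 to -0.043. The sign turned with quantile normalization (0.031), with median centring (0.056) and with array weights (0.20). The block fit put its 95% interval at -0.50 to 0.42, so a difference of up to 0.42 upward lies within the error. LDHA, the lactate-forming dehydrogenase subunit gene, was at -0.23 (interval -0.61 to 0.14) and LDHB, the heart-type subunit gene, at -0.0025 (-0.37 to 0.36). The aldolase genes ALDOA and ALDOC were at -0.072 and -0.10, TPI1, the triose isomerase gene, at -0.062, and the pyruvate kinase gene PKM at -0.16. The glucose phosphate isomerase gene GPI was at 0.0028 (-0.30 to 0.30) and the neuronal enolase gene ENO2 at 0.21.

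Several enzymes varied more between replicate numbers than between precursors. LDHB signals were 11347, 22101 and 31383 in control and 11391, 26324 and 26112 in miR21 samples, a 2.77-fold range among control arrays. PFKP ranged 2.79-fold in control (5205, 9564 and 14516) and 2.99-fold in miR21 samples, and GPI 2.33-fold and 2.39-fold. Measured from each gene's mean over the 6 arrays, the enzyme median was -0.27, 0.036 and 0.48 in control and -0.39, 0.0058 and 0.092 in miR21 samples. The 12 other hypoxia genes lay at 0.065, 0.017 and -0.46 and at 0.39, 0.32 and -0.33. Control replicate 3 thus held the highest enzyme median and the lowest hypoxia median, while the median of all genes stayed within -0.034 to 0.059 on every array.

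The transporters and flux regulators had a median of -0.084 over 5 tested genes, with 0 higher in all numbers (against 20.3% of all genes) and 1 lower (20%, against 20.9%). SLC2A1, the main glucose transporter gene of tumour cells, had signals of 2066, 2838 and 3065 in control and 1755, 3186 and 2683 in miR21 samples (-0.087, block interval -0.43 to 0.25). A dimmer SLC2A1 probe set differed by -0.89. PFKFB4, a kinase that makes the phosphofructokinase activator, had signals of 48.1, 391 and 354 in control and 293, 326 and 394 in miR21 samples. Its difference of 0.83 rested on control replicate 1, without which it was -0.15. The related PFKFB3 was at -0.084. PDK1, whose kinase inhibits pyruvate dehydrogenase, had signals of 1222, 463 and 234 in control and 1189, 339.7 and 231 in miR21 samples. The PDK1 difference was -0.17, far smaller than its 5.21-fold range among control arrays. A dimmer PDK1 probe set differed by -1.06, and the mean over its probe sets by -0.51. PDK3 was at 0.04. SLC2A3, under the filter, had signals of 6.53 to 43.4 and no order between the groups (exact permutation p = 0.5).

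**Figure D5:**
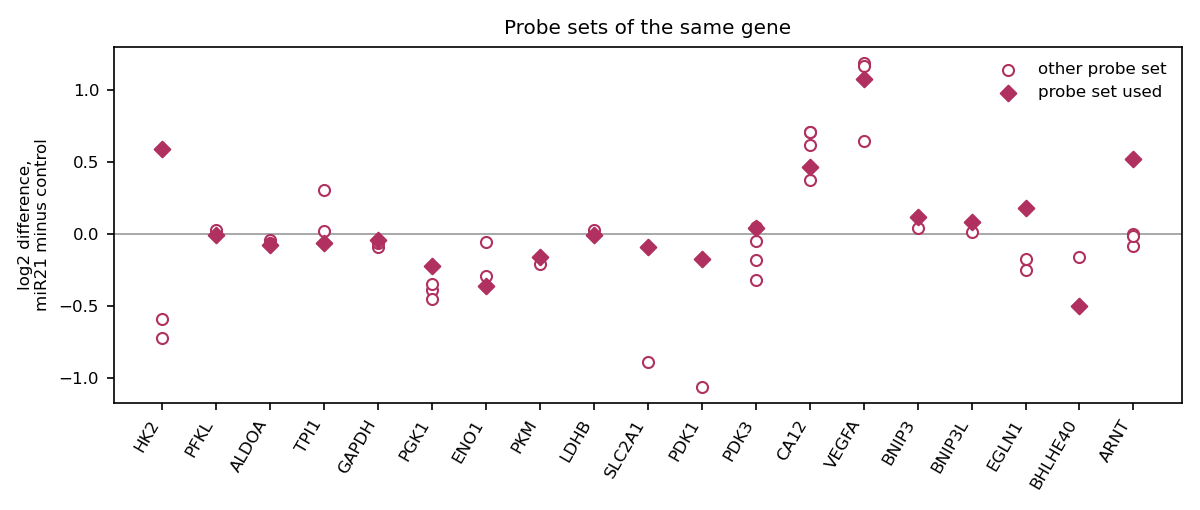
Log2 difference, miR21 minus control, of every probe set above the filter for the 19 members with more than 1 (diamonds, the probe set used; circles, others). VEGFA and CA12 are on 1 side of 0 by all probe sets, while HK2 and ARNT have others near or below 0.

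Of the 19 members with more than 1 probe set above the filter, 12 had all of them on the same side of 0. The 7 that did not were HK2, PFKL, TPI1, LDHB, PDK3, EGLN1 and ARNT.

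Other genes of the pathways were read from lists of the same origin. Of 19 tested further genes of glycolysis and pyruvate entry, 0 passed limma with or without the block. HKDC1, a hexokinase family gene, had signals of 1829, 2405 and 2488 in control and 8640.3, 12039.8 and 3539 in miR21 samples. The groups did not overlap, and the difference was 1.69 (3.23-fold; limma, SE 0.46, unadjusted p = 0.00712; with the block SE 0.33, adjusted p = 0.107). PGM1, a phosphoglucomutase gene, was at -0.37 (SE 0.54, and 0.13 with the block). Their median was -0.11, with 7 above 0 and 12 below. Of 37 tested further genes of the HIF pathway 0 passed as well, with a median of 0.16, 12 higher in all numbers (32.4%, against 20.3% of all genes) and 7 lower (18.9%, against 20.9%). The median of this list was 0.17, -0.073 and 0.14 in numbers 1, 2 and 3. The list was chosen with earlier results of these data known, so its shares are no independent evidence. DDIT4, an mTORC1 inhibitor gene and HIF target, had signals of 2524, 2858 and 1203 in control and 13914, 13209 and 2109.9 in miR21 samples. The DDIT4 difference was 1.83 (SE 0.75, and 0.30 with the block). Its adjusted p in limma was 0.9999, and 0.0730 with the block. AK4, an adenylate kinase gene and HIF target, was lower in each number, by -0.51, -0.56 and -0.62 (SE 0.36, and 0.13 with the block). The adjusted p of AK4 in limma was 0.9999, and 0.120 with the block.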

How the data were processed

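Gene expression was measured on 6 arrays, 3 per group. Per the submitters' processing notes, the authors used MAS5, with no version or settings stated there. Each deposited intensity is a linear signal of a probe set, with a mean of 500 on every array after trimming 2% at both ends. A change common to most genes is therefore scaled away, and dim signals are noisy on the log scale. The number of arrays limits the precision.

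Signals were taken to log2 without a pseudocount. Of 54675 probe sets 62 controls were left out and 41091 named 1 gene by the platform annotation; symbols were checked by Entrez identifier in RefSeq (GRCh38.p14) and 0 were updated. For each gene the probe set brightest on average (log2) was used, and genes under the median of all probe sets (6.03, a signal of 65.5) were left out. R 4.3.3 with limma 3.58.1 (lmFit, then eBayes with trend) compared the groups over 12206 genes with Benjamini-Hochberg adjustment at 0.05. Steps were tested on simulated data. The planned fit has no block. The block treats arrays of the same replicate number in the titles as pairs. Deviations from the group means correlated at 0.899, 0.638 and 0.635 in numbers 1, 2 and 3 (numbers 2 and 3 crossed gave 0.411 and 0.283). Because number 1 stood apart in both groups, these correlations cannot by themselves establish a pairing of numbers 2 and 3. All 41 members were to be named, and of the further lists up to 4 genes called in the block fit, or else the 2 of smallest p in it. Members and lists were chosen with earlier results of these data known. Alternatives were a pseudocount of 16, centring on array medians, quantile normalization, other filters and probe set rules, no variance trend, array weights, the block, and arrays left out.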

Additional observations from a re-analysis of the deposited data

How the results depend on the processing

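With arrays left out, the genes called in limma ranged from 0 to 4004 and the members called from 0 to 11. Both were highest with the replicate block and without number 3. All single-array omissions called 0 genes, and block fits without number 1 and number 2 called 59 and 0 (905 at an unadjusted p under 0.05). Every block fit without 1 number, not only that without number 3, keeps 1 residual degree of freedom. The replicate block with all arrays called 4 genes and changed no member's call. Over the arrays left out the enzyme median ranged from -0.31 to 0.042, the hypoxia median from 0.065 to 0.52 and their gap from -0.72 to -0.022; with array weights, whose estimation stopped short of its tolerance, the gap was -0.18. With all other members in place of the hypoxia genes, chosen after seeing the data, it was -0.35. Of 696 member values under alternatives 605 kept sign and call, 80 changed sign and 11 passed the threshold, and 15 of 37 members never changed sign. Leaving arrays out changed the sign of GPI -0.31 to 0.35, PFKL -0.23 to 0.26, PFKP -0.60 to 0.25, ALDOA -0.29 to 0.24, ALDOC -0.29 to 0.21, TPI1 -0.35 to 0.25, GAPDH -0.24 to 0.21, ENO2 -0.092 to 0.57, LDHB -0.41 to 0.40, SLC2A1 -0.27 to 0.16, PFKFB3 -0.22 to 0.0057, PFKFB4 -0.15 to 1.38, PDK1 -0.86 to 0.46, PDK3 -0.45 to 0.57, BNIP3 -0.086 to 0.26, BNIP3L -0.43 to 0.51, EGLN1 -0.50 to 0.74 and MXI1 -0.071 to 0.39. Single omissions spanned -0.25 to 0.17 for ALDOC, had -0.19 as the lowest for GAPDH and 1.36 as the highest for PFKFB4, and block fits without 1 number turned GPI (-0.04), PFKL (0.26), ALDOA (0.18), ALDOC (0.21), TPI1 (0.0093), GAPDH (0.20), LDHB (0.13), PFKFB4 (-0.056), PDK3 (-0.055) and BNIP3L (-0.073). Quantile normalization turned GPI (-0.0048), PFKL (0.017), ALDOA (0.0084), GAPDH (0.031) and LDHB (0.0024). Median centring turned PFKL (0.094), ALDOA (0.027), TPI1 (0.037), GAPDH (0.056), LDHB (0.10), SLC2A1 (0.012) and PFKFB3 (0.015). Averaging probe sets turned HK2 (-0.24), PFKL (0.011), TPI1 (0.089), LDHB (0.013), PDK3 (-0.091), EGLN1 (-0.28), ANKRD37 (0.45) and ARNT (-0.048), and preferring unsuffixed probe sets turned TPI1 (0.31). Array weights turned PFKL (0.042), ALDOA (0.19), TPI1 (0.051), GAPDH (0.20), PKM (0.021), LDHB (0.10), SLC2A1 (0.013), PFKFB4 (-0.089), BNIP3 (-0.095) and BNIP3L (-0.41). Leaving out 1 array leaves the groups unequal in replicate number, while the block fits without 1 number drop both its arrays. The cause of the sign changes was not tested. ANGPTL4, and PFKFB4 on control replicate 1, had signals near or under the filter, which limits their values.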
